A study of Homo sapiens with 16 samples.

Results

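Kinesins are motor proteins that turn ATP into movement along microtubules, or, in some families, into the removal of tubulin from microtubule ends. Mitotic kinesins push spindle poles apart, align chromosomes and complete cytokinesis, and in dividing cells their mRNAs are known to peak in G2 and mitosis. Transport kinesins carry vesicles, mitochondria and other cargo along the microtubules of interphase cells, and others work in the cilium. All genes of the counts table whose symbol is KIF or KIFC followed by a number, with or without a letter A, B or C after it, were taken, which gave 42 of 42351 genes. They were divided by their known roles, with earlier results of these data known, into 14 mitotic kinesins, 17 transport kinesins, 6 kinesins of the cilium and 5 others.

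The libraries were made from polyA RNA of lung cancer cell lines stimulated with hepatocyte growth factor (HGF), the ligand of the receptor tyrosine kinase MET. Cells expressing wt MET, which the sample labels name as the adenocarcinoma line A549, and cells expressing MET∆14, the splice form without the juxtamembrane exon, from the adenosquamous line NCI-H596, were compared at 0, 3, 6 and 12 h of HGF. Each of the 8 conditions had 2 libraries, and per the labels all of them, the 0 h cells included, had been kept without serum for 12 h before HGF was added, while the study's methods give a longer time. Each form of MET was carried by 1 cell line, so MET status and line cannot be told apart. Since 0 h was the only condition without HGF, the time in culture and HGF cannot be told apart either.

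Total counts ranged from 10158590 to 23909304 per library, and kinesin genes took between 0.175% and 0.225% of them. Replicates differed by more than sampling noise in every condition, with a chi-square per degree of freedom between 2.795 and 9.953 in 7 conditions and 34.5 in MET∆14 cells at 12 h, whose libraries stood apart and are given separately where a result rests on them. CDKN2A, which is deleted in A549, had 0 counts in every wt MET library and 86.0 to 157 CPM (counts scaled to equal library totals) in MET∆14 libraries. The epithelial keratins KRT8 and KRT18 were at 358 CPM or more in every library, while EPCAM was at 0.868 to 2.97 CPM with wt MET and 24.4 to 37.4 CPM with MET∆14. Of 6 markers of other cell types, PTPRC, CD3E and LYZ had at most 2 counts in any library and PECAM1 at most 37. COL1A1 was at 10.8 to 33.3 CPM in both lines, and COL3A1 at 170 to 328 CPM with MET∆14 against at most 0.485 CPM with wt MET, and the part of these genes in the differences between the lines was not tested.

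Before HGF, the mitotic kinesins were higher in MET∆14 cells, whereas most transport kinesins were lower. Of the 36 kinesins with enough counts to be tested, 12 were mitotic, and 10 of these were higher in MET∆14 cells (edgeR's quasi-likelihood test, adjusted by Benjamini-Hochberg over 15067 genes, threshold 0.05; 40.6% of all genes tested were called higher), with KIF18A and KIF20B not called. Their median log2 difference was 1.22, against 0.02 over all genes tested. Among the 17 transport kinesins, 10 were lower, 3 were higher and 4 were not called (39.6% of all genes were called lower), with a median of -0.55. In bulk RNA, fewer cells of a kind, such as cells in mitosis, and less RNA per cell cannot be told apart.

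The largest difference among the mitotic and transport kinesins was that of KIF20A (chr5:138178719-138187723), the motor MKLP2 that carries the chromosomal passenger complex to the spindle midzone. It stood at 8.32 and 7.21 CPM in the wt MET libraries and at 168 and 172 CPM in those of MET∆14. The groups were far apart, with a log2 difference of 4.45 (SE 0.123, adjusted p = 1.21e-13). KIFC1, the minus-end motor that clusters spindle poles, was at 15.3 and 12.6 CPM with wt MET and at 84.7 and 83.1 CPM with MET∆14. Of the transport kinesins, KIF13A, a motor of recycling endosomes, was higher with MET∆14 (log2 difference 2.04, SE 0.119), together with KIF3B and KIFC2, and the vesicle motor KIF13B was lower (-2.96, SE 0.15). The call of KIFC2 was lost without MET∆14 0 h replicate 2, and that of KIF17, among the lower genes, without replicate 1 of either line at 0 h.

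Levels of different genes were compared per kilobase of exon. On that scale KIF5B, the conventional kinesin heavy chain of most tissues, led in wt MET cells at 0 h with 81.2 ± 3.65 CPM per kb (SD, n = 2), followed by KIFC3 with 26.8 ± 1.13 CPM per kb. In MET∆14 cells KIF20A led with 44.1 ± 0.836 CPM per kb, ahead of KIF5B with 33.9 ± 1.16 CPM per kb. Mitotic kinesins thus held 28.5% of the summed kinesin level per length with wt MET and 60.8% with MET∆14. The mitotic share was lower at every time with HGF in both lines, at 24.2%, 19.2% and 13.9% at 3, 6 and 12 h with wt MET, and at 42.9%, 42.1% and 43.8% with MET∆14. The share of KIF5B alone went from 30.9% to 44.3% at 12 h with wt MET and from 10.1% to 15.4% with MET∆14. The plot of levels at 0 h shows the distance between the lines for every tested member.

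**Figure D1:**
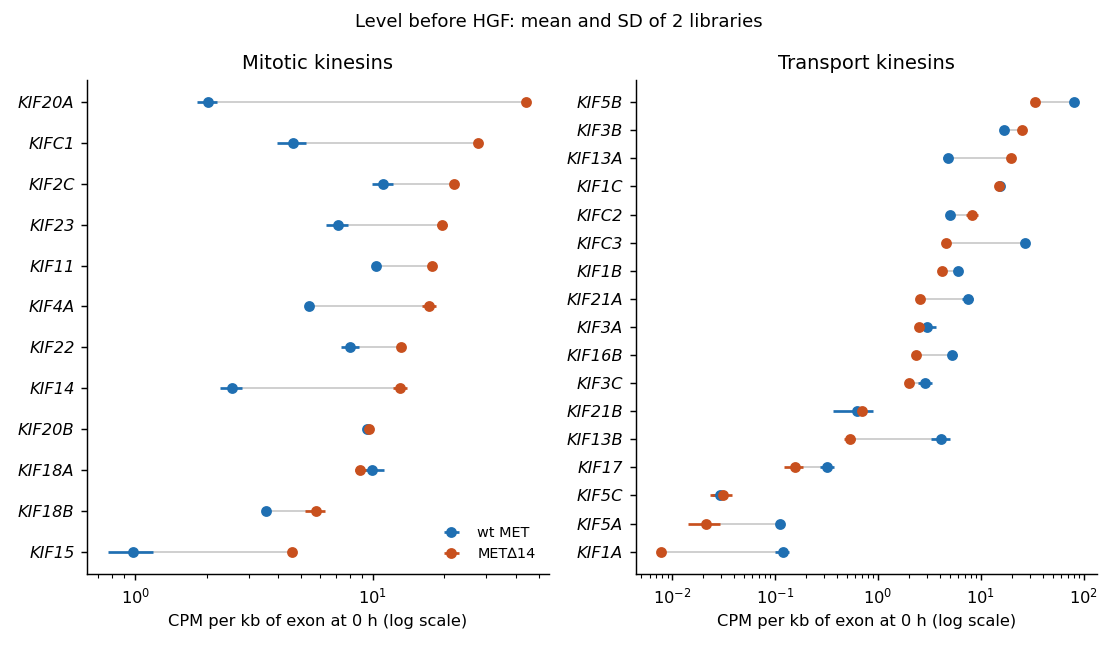
Level of each tested mitotic (left) and transport (right) kinesin at 0 h, as CPM per kb of exon on a log axis, with the mean and SD of 2 libraries for wt MET (blue) and MET∆14 (orange). KIF20A and KIFC1 lie furthest apart among the mitotic kinesins, and KIF20B is at the same level in both lines.

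After HGF, all mitotic kinesins tested changed in both lines. In wt MET cells 12 of 12 were called at any time, 11 of them lower on average (40.3% of all genes were called, 21.1% lower on average), and in MET∆14 cells 12 of 12 were called, all lower (54.1% and 28.5%). The number called stayed at 11 or 12 with wt MET and at 12 with MET∆14 when any library was left out. The lines differed in timing. With wt MET the number lower than at 0 h was 4 at 3 h, 10 at 6 h and 11 at 12 h (7.16%, 17.8% and 18.2% of all genes), and the median log2 change was -0.28, -0.76 and -1.35. With MET∆14 the number lower was 12 at 3 h, 11 at 6 h and 10 at 12 h (16.1%, 22.5% and 20.1% of all genes), with medians of -0.88, -0.67 and -0.61. The median over all genes stayed between -0.05 and 0.00 in these comparisons. With MET∆14 the call of KIF23 at 3 h was close to the threshold (-0.28, adjusted p = 0.0465) and was lost in 11 of 16 fits that left out a library. At 6 h its call was lost in 4 such fits and that of KIF18A in 1. The 4 calls at 3 h with wt MET became 1 without replicate 2 of wt MET at 0 h or either replicate at 3 h, and 2 without replicate 1 at 0 h, either wt MET replicate at 6 h or either MET∆14 replicate at 0 h.

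In the summed level the fall from 0 h was seen in each library, while a minimum at 3 h with MET∆14 was not. The summed level of the 12 mitotic kinesins in wt MET cells was 384 and 409 CPM at 0 h, 354 and 371 CPM at 3 h, 300.1 and 277 CPM at 6 h and 207 and 200.2 CPM at 12 h. In MET∆14 cells it was 968 and 998 CPM at 0 h, 521 and 595 CPM at 3 h, 568 and 574 CPM at 6 h and 648 and 576 CPM at 12 h. The replicates of neighbouring times did not overlap with wt MET, whereas with MET∆14 the libraries at 3 h overlapped those at 6 and at 12 h, both at 12 h lay above both at 6 h, and all lay below those at 0 h. The lowest mean was at 12 h for 11 of 12 members with wt MET, the exception being KIF20B, and at 3 h for 6, at 6 h for 4 and at 12 h for 2 members with MET∆14.

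**Figure D2:**
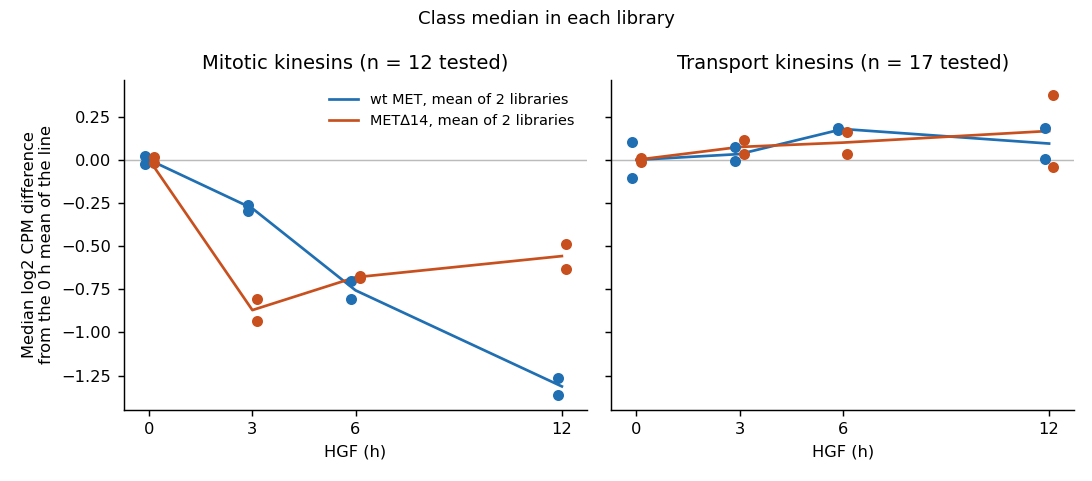
Median over the tested mitotic (left, n = 12) and transport (right, n = 17) kinesins of the log2 CPM difference from the 0 h mean of the same line, against hours of HGF, with 1 point per library and a line through the mean of 2 libraries. The mitotic median is lower at each later time with wt MET (blue), at -1.36 and -1.26 at 12 h, and with MET∆14 (orange) is lowest at 3 h, at -0.94 and -0.81, while the transport median stays between -0.10 and 0.38 in every library.

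KIF20A fell most in both lines. In wt MET libraries it read 8.32 and 7.21 CPM at 0 h, 4.34 and 4.36 CPM at 3 h, 2.12 and 1.68 CPM at 6 h and 1.19 and 0.673 CPM at 12 h. Each time lay below the one before it without overlap, and the log2 change at 12 h was -2.99 (SE 0.202, adjusted p = 1.50e-07). With MET∆14 it read 168 and 172 CPM at 0 h, 64.1 and 73.2 CPM at 3 h, 47.6 and 49.8 CPM at 6 h and 60.1 and 60.2 CPM at 12 h. Here the level was lowest at 6 h (-1.80, SE 0.101, adjusted p = 5.76e-09), and every library with HGF lay below both 0 h libraries. Of its exon bases, 5.35% overlap BRD8 or CDC23 on the other strand, and the use of strand in the counting is not known.

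KIF18B, which limits the length of astral microtubules, and KIFC1 had the next largest mean fall with wt MET. KIF18B went from 17.0 and 16.6 CPM at 0 h through 12.4 and 10.3 CPM at 3 h and 6.90 and 6.26 CPM at 6 h to 2.14 and 2.69 CPM at 12 h, a log2 change of -2.81 (SE 0.213, adjusted p = 3.96e-07). KIFC1 went from 15.3 and 12.6 CPM through 11.3 and 11.1 CPM and 7.38 and 7.27 CPM to 3.00 and 2.29 CPM (-2.37, SE 0.162, adjusted p = 1.51e-07). In both genes every library at a later time was below every library at an earlier one. A pseudogene annotated on the other strand, RPL12P1, overlaps 14.0% of the exon bases of KIFC1.

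KIF18B returned with MET∆14. It read 25.2 and 29.0 CPM at 0 h, 14.5 and 15.7 CPM at 3 h, 21.6 and 21.6 CPM at 6 h and 36.5 and 23.9 CPM at 12 h. It fell at 3 h (-0.84, SE 0.164, adjusted p = 0.00114) and was higher at 12 h than at 3 h (1.01, SE 0.165, adjusted p = 0.000433), and at 12 h its replicates lay on either side of those at 0 h. KIFC1 was at 84.7 and 83.1 CPM at 0 h, 45.0 and 53.5 CPM at 3 h, 55.4 and 60.9 CPM at 6 h and 62.7 and 57.9 CPM at 12 h, so that all libraries with HGF were below those at 0 h. It was not called between 12 h and 3 h (0.29, SE 0.109, adjusted p = 0.0599).

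KIF15, which helps the kinesin-5 motor KIF11 to keep the spindle bipolar, fell early with MET∆14. Its libraries read 24.2 and 23.9 CPM at 0 h, 10.6 and 11.5 CPM at 3 h, 12.2 and 11.5 CPM at 6 h and 16.9 and 15.4 CPM at 12 h. The change was -1.12 at 3 h (SE 0.163, adjusted p = 9.77e-05) and -0.57 at 12 h (SE 0.159, adjusted p = 0.0105), the second of which was lost without either replicate at 0 h. With wt MET, KIF15 was at 5.93 and 4.38 CPM at 0 h and 2.10 and 2.15 CPM at 12 h (-1.28, SE 0.229, adjusted p = 0.000604). KIF11 itself, the tetramer Eg5, fell by 1.42 at 12 h with wt MET (SE 0.0999) and by 0.99 at 3 h with MET∆14 (SE 0.0935), in log2 units.

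Levels at 12 h were also compared with those at 3 h. With wt MET, 11 of 12 were lower at 12 h (11.1% of all genes were called lower). With MET∆14 5 rose, namely KIF11, KIF15, KIF18A, KIF18B and KIF20B (13.3% of all genes were called higher), none fell and 7 were not called, of which KIF20A, KIF22 and KIF23 had values below 0. This count rested on single libraries: without MET∆14 12 h replicate 1, 3 were higher and 1 lower, and without MET∆14 3 h replicate 1, 2 were higher and 1 lower. The 12 h replicates of MET∆14 were unequal, for example 69.9 and 45.9 CPM for KIF14 and 50.7 and 34.8 CPM for KIF20B.

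**Figure D3:**
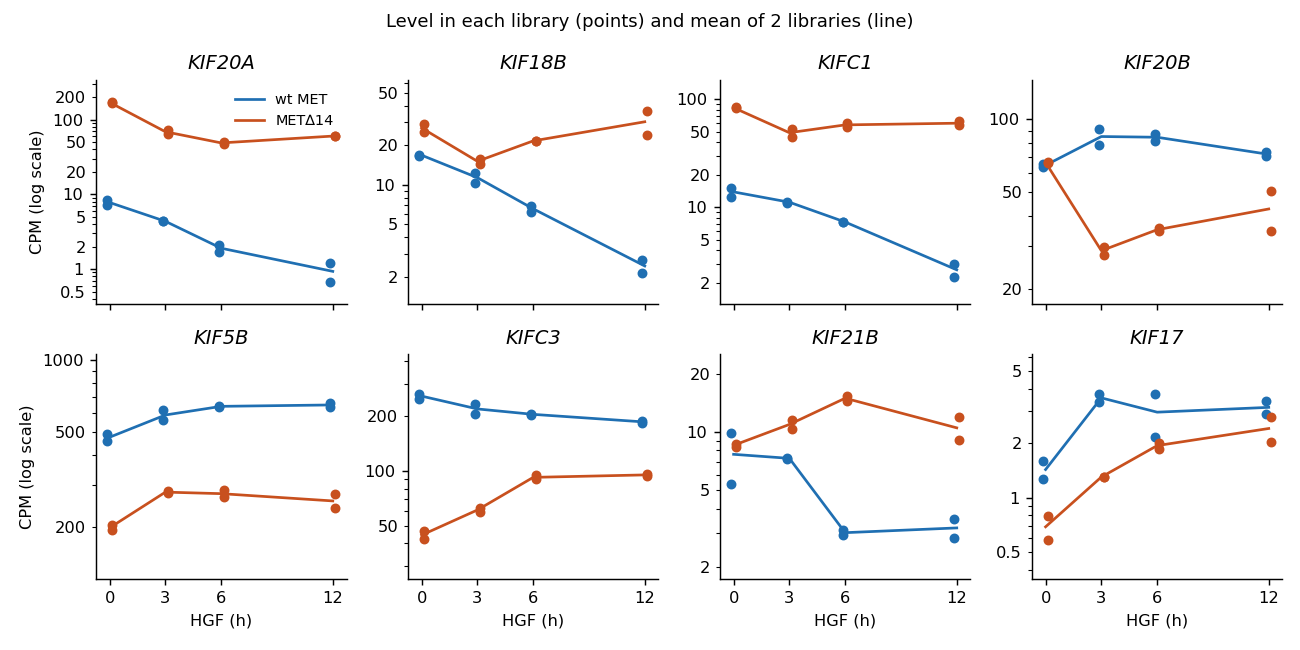
CPM on a log axis against hours of HGF for 8 kinesins, with 1 point per library and a line through the mean of 2 libraries, wt MET in blue and MET∆14 in orange. KIF20A, KIF18B and KIFC1 decline to 12 h with wt MET, KIF20B rises with wt MET and falls with MET∆14, KIF5B and KIF17 rise in both lines, and KIFC3 and KIF21B move opposite ways.

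The difference in response was tested itself. Over the 3 times it was called for 11 of 12 mitotic kinesins (37.6% of all genes), the exception being KIF23, the MKLP1 subunit of centralspindlin, whose adjusted p was 0.128. At 3 h the change was lower with MET∆14 for 6 members (8.47% of all genes were called lower), and at 12 h it was higher for 8 (13% were called higher) and lower for KIF20B (11% were called lower). KIF18B had the largest of these differences at 12 h, 2.98 (SE 0.267, adjusted p = 3.24e-06), followed by KIFC1 with 1.89 (SE 0.196). The median difference moved from -0.56 at 3 h through 0.14 at 6 h to 0.74 at 12 h, against 0.01, 0.04 and 0.01 over all genes.

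KIF20B, the kinesin MPP1 of late cytokinesis, was the mitotic kinesin that rose on average with wt MET. Its wt MET libraries read 63.9 and 65.6 CPM at 0 h, 78.5 and 91.5 CPM at 3 h, 87.0 and 81.8 CPM at 6 h and 73.2 and 70.4 CPM at 12 h, so every library with HGF was above both at 0 h. The rise was close to the threshold (0.39 at 3 h, SE 0.127, adjusted p = 0.0457, and adjusted p = 0.049 over the 3 times), and the call over the 3 times was lost without any 1 of 7 wt MET libraries, the exception being replicate 1 at 3 h. In MET∆14 cells it started from the same level, at 66.0 and 67.0 CPM, and was at 27.6 and 29.9 CPM at 3 h, 34.6 and 35.6 CPM at 6 h and 50.7 and 34.8 CPM at 12 h. It fell by 1.21 at 3 h on the log2 scale (SE 0.133, adjusted p = 6.63e-06). The responses differed at all 3 times, by -1.60 at 3 h (SE 0.184, adjusted p = 3.19e-05), -1.30 at 6 h and -0.77 at 12 h. KIF14 also departed from the class with wt MET, at 18.6 ± 1.97 CPM at 0 h, 23.5 ± 1.35 CPM at 3 h and 18.8 ± 0.528 CPM at 6 h (SD, n = 2). It was called at neither 3 h nor 6 h and was lower at 12 h (-0.94, SE 0.173, adjusted p = 0.00074). Its mean change of -0.19 was not called in the test of the mean (adjusted p = 0.284).

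**Figure D4:**
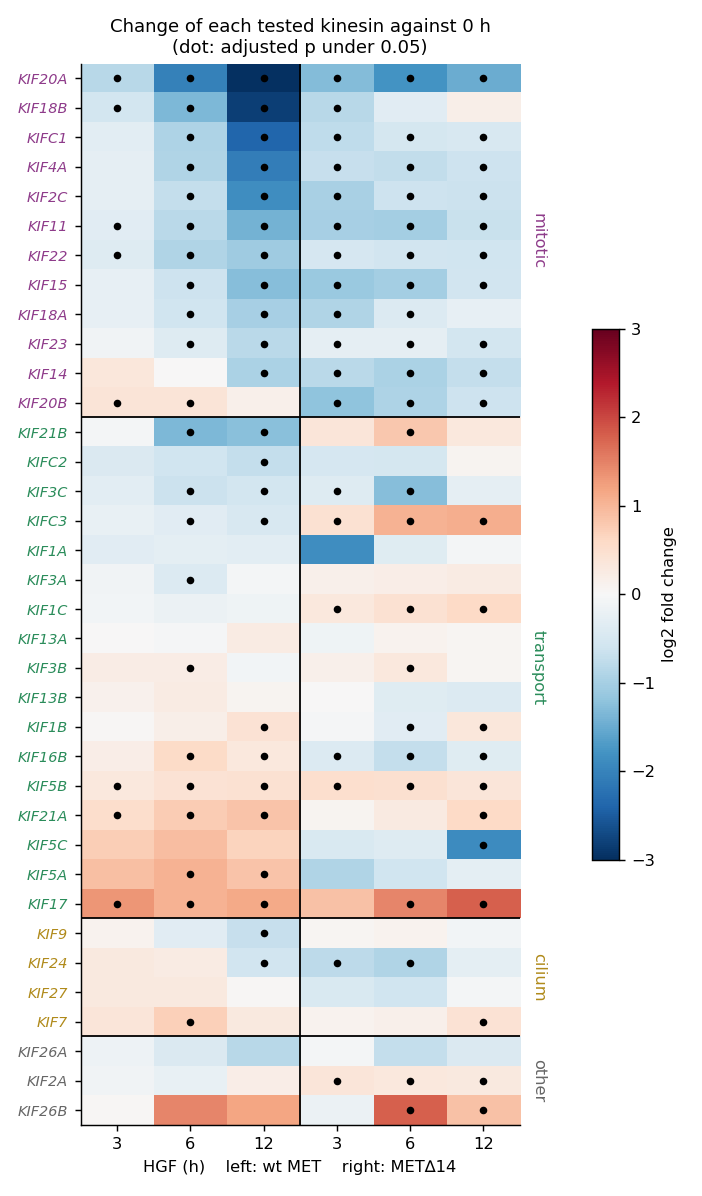
Log2 fold change against 0 h of the same line (colour) at 3, 6 and 12 h of HGF with wt MET (left columns) and MET∆14 (right columns) for the 36 tested kinesins, grouped by role, with a dot where the adjusted p was under 0.05. Most mitotic cells are blue. Those above 0 are KIF20B at all times and KIF14 at 3 and 6 h with wt MET and KIF18B at 12 h with MET∆14, and the transport rows are mixed. KIF1A had at most 4 counts in each MET∆14 library.

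Since the mitotic kinesins moved together, their promoters were read from RefSeq (GRCh38.p14; 250 bases before to 50 after each start) and searched for a pair of motifs of G2 and mitosis genes. The cell cycle genes homology region (CHR), which the DREAM and MuvB complexes bind, was taken as TTTGAA or TTCGAA on either strand, and the box of the factor NF-Y as CCAAT on either strand, and no CHR match overlapped a CCAAT match in a mitotic promoter. All 14 mitotic kinesins matched the table, and 34 of the 42 members did, with 43 promoters. Of the 15 mitotic promoters, 80.0% held a CHR and 73.3% a CCAAT, and 66.7% held both. By gene, 10 of the 12 tested mitotic kinesins held a CHR, 10 a CCAAT and 9 both, against 19.5%, 39.7% and 7.85% of all genes with a promoter there. The 17 transport promoters came from 12 of the 17 transport kinesins, with no entry for KIF13B, KIF21B, KIF5A, KIFC2 and KIFC3. Of these promoters, 5.88% held a CHR, which was that of KIF5B, and 29.4% a CCAAT. Over all 35116 promoters of this length the shares were 16.4% and 34.6%, and 6.38% held both. In the plot of promoter matches, the first base of the CHR of the mitotic kinesins lies between positions -55 and 31 from the start, except in the second promoter of KIF22 (-244), and in all 10 promoters with both motifs the CCAAT lies upstream of the CHR. Neither KIF20A nor KIF2C had a match to the CHR as taken here in this window, and other forms of it were not searched. KIF20A had a CCAAT in 2 places.
The windows from 100 bases before to 20 after the start are shown for KIF20A, KIF18B, KIFC1 and KIF15, whose values by library are given above, and for KIF11 and KIF4A, with CHR and CCAAT matches in capitals, 5′ to 3′ on the strand of the gene. They lie at chr5:138179012-138179131 (plus strand), chr17:44947754-44947873 (minus strand), chr6:33391723-33391842 (plus strand), chr3:44761694-44761813 (plus strand), chr10:92593030-92593149 (plus strand) and chrX:70290004-70290123 (plus strand).
KIF20A: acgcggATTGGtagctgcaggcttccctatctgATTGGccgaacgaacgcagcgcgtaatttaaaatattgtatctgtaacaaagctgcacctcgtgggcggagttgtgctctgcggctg
KIF18B: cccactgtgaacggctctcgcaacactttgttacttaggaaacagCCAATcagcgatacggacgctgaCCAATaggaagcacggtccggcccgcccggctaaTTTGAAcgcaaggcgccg
KIFC1: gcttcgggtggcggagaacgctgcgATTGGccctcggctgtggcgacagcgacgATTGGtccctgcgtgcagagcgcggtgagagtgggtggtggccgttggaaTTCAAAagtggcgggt
KIF15: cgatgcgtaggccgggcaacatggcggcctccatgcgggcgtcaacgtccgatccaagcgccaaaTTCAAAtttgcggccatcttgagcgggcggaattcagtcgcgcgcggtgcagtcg
KIF11: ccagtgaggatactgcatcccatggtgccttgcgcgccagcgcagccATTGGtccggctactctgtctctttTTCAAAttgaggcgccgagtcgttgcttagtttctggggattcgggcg
KIF4A: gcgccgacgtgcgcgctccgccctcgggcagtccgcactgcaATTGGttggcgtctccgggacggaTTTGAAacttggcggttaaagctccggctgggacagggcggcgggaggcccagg
The same window of the transport kinesins KIF5B, at chr10:32056406-32056525 (minus strand), and KIF17, at chr1:20717988-20718107 (minus strand), which rose, holds a CCAAT in KIF5B and no match in KIF17.
KIF5B: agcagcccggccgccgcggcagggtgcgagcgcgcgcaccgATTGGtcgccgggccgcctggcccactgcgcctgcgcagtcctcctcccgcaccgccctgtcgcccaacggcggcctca
KIF17: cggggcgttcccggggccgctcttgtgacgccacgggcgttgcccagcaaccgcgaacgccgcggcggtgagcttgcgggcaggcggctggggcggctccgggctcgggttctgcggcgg
A match is a stretch of letters and was not tested as a binding site. KIF20B had a CHR starting at bases 25 and 31 after the start.

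**Figure D5:**
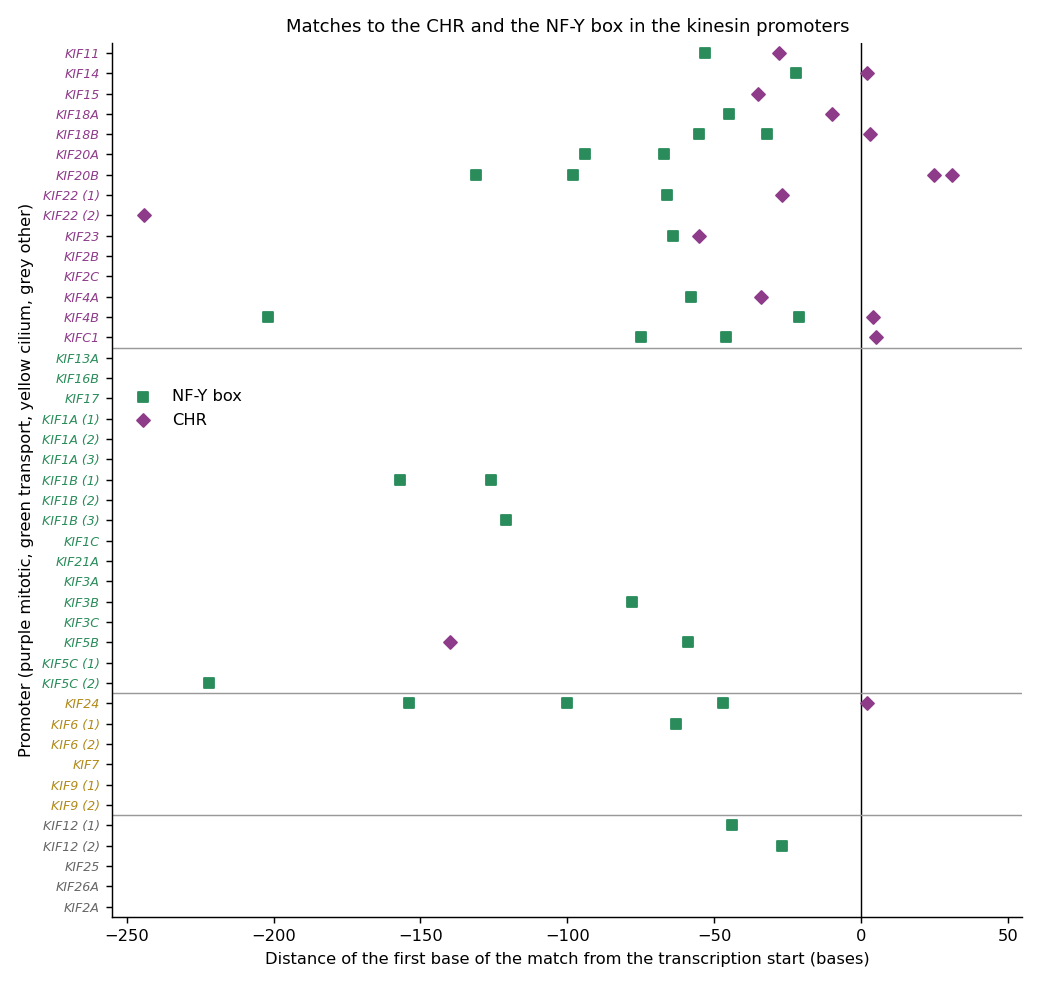
Distance in bases of the first base of each match from the transcription start (line at 0) for the CHR (purple diamonds) and the NF-Y box (green squares) in 43 promoters of 34 kinesins, numbered where a gene has several. The mitotic promoters at the top hold a CHR in 12 of 15 cases, and the 17 promoters of 12 transport kinesins in 1.

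The transport kinesins changed in both directions and less uniformly. In each line 10 of 17 were called at any time (40.3% of all genes with wt MET and 54.1% with MET∆14), 7 higher and 3 lower on average, and the number lay between 8 and 12 when any library was left out. Of all genes, 19.2% were called higher and 21.1% lower with wt MET, and 25.6% and 28.5% with MET∆14. The class median stayed near 0, between 0.01 and 0.18 at single times. Its sign turned with wt MET at 12 h without replicate 2 of 0 h (-0.06) or of 12 h (-0.01). With MET∆14 it turned at 12 h without 12 h replicate 1 (-0.04) and at 3 h without 0 h replicate 2 (-0.01). The response differed between the lines for 7 of 17 (37.6% of all genes), between 5 and 10 when a library was left out.

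KIF5B was the transport kinesin that was called higher at every time in both lines. With wt MET it read 492 and 461 CPM at 0 h, 560 and 621 CPM at 3 h, 639 and 644 CPM at 6 h and 637 and 663 CPM at 12 h. The MET∆14 libraries had 194 and 204 CPM at 0 h, 283 and 278 CPM at 3 h, 285 and 268 CPM at 6 h and 275 and 240.3 CPM at 12 h. In both lines all 6 libraries with HGF lay above both at 0 h. The log2 change at 6 h was 0.43 with wt MET (SE 0.0881, adjusted p = 0.00167) and 0.47 with MET∆14 (SE 0.0889, adjusted p = 0.000521), and the responses differed by 0.05 on average (adjusted p = 0.353). Its call at 3 h with wt MET was lost without either 0 h replicate or 3 h replicate 2.

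KIF17, a homodimeric motor of dendrites and cilia, had the largest mean rise of the transport kinesins in both lines, at a low level. It was at 1.59 and 1.27 CPM at 0 h with wt MET and at 3.74 and 3.40 CPM at 3 h, 2.18 and 3.77 CPM at 6 h and 3.43 and 2.89 CPM at 12 h. With MET∆14 it went from 0.587 and 0.795 CPM through 1.30 and 1.30 CPM and 1.87 and 2.01 CPM to 2.79 and 2.04 CPM. Every library with HGF was above those at 0 h in both lines. The mean log2 change was 1.17 with wt MET (adjusted p = 0.012 over the 3 times) and 1.39 with MET∆14 (adjusted p = 0.00199), and the call with wt MET was lost without replicate 2 at 0 h.

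KIFC3, a minus-end motor of adherens junctions and the Golgi, moved in opposite directions in the lines. With wt MET it fell from 249.6 and 265 CPM at 0 h through 232 and 206 CPM at 3 h and 206 and 203 CPM at 6 h to 189 and 182 CPM at 12 h (-0.47, SE 0.0807, adjusted p = 0.000419). With MET∆14 it rose from 42.1 and 46.8 CPM through 59.4 and 62.8 CPM and 89.8 and 94.6 CPM to 93.9 and 96.3 CPM (1.09, SE 0.0857, adjusted p = 3.24e-07). The libraries with HGF did not overlap those at 0 h in either line, and the difference in response at 12 h was 1.57 (SE 0.118, adjusted p = 9.73e-07). Genes of the other strand overlap 5.60% of its exon bases.

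KIF16B, a motor of early endosomes, went the other way. With wt MET it read 43.8 and 38.0 CPM at 0 h, 46.5 and 47.6 CPM at 3 h, 57.3 and 64.7 CPM at 6 h and 50.1 and 52.4 CPM at 12 h, and it rose by 0.58 at 6 h (SE 0.101, adjusted p = 0.000478). With MET∆14 it read 18.0 and 18.3 CPM at 0 h, 13.1 and 14.0 CPM at 3 h, 10.3 and 11.7 CPM at 6 h and 14.8 and 13.1 CPM at 12 h, and it fell by 0.72 at 6 h (SE 0.115, adjusted p = 0.000144), both in log2 units. In both lines the libraries with HGF lay on 1 side of those at 0 h. Its response differed at all 3 times, most at 6 h (-1.29, SE 0.153, adjusted p = 1.93e-05).

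The kinesin-4 paralogues KIF21A and KIF21B, which restrain microtubule growth, differed from each other with wt MET. KIF21A rose with wt MET from 82.3 and 69.6 CPM at 0 h through 103 and 116 CPM and 120.5 and 135 CPM to 138 and 138 CPM at 12 h (0.86, SE 0.117, adjusted p = 7.10e-05), without overlap between 0 h and later times. KIF21B, by contrast, was at 9.91 and 5.37 CPM at 0 h with wt MET, 7.21 and 7.36 CPM at 3 h, 2.91 and 3.10 CPM at 6 h and 3.53 and 2.83 CPM at 12 h, and fell by 1.35 at 6 h in log2 units (SE 0.252, adjusted p = 0.00082). Its 0 h replicates were the most unequal, and its mean log2 change of -0.89 was -0.38 without replicate 1 and -1.25 without replicate 2 at 0 h. With MET∆14 KIF21B was at 8.67 and 8.35 CPM at 0 h, 10.3 and 11.5 CPM at 3 h, 15.4 and 14.4 CPM at 6 h and 11.9 and 9.08 CPM at 12 h, so it rose at 6 h (0.81, SE 0.204, adjusted p = 0.00471), where the difference between the lines was 2.15 (SE 0.324, adjusted p = 0.000149).

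In 4 kinesins, KIF16B, KIF20B, KIF21B and KIFC3, the 2 lines were called in opposite directions at the same time, out of 36 tested, beside 7.71% of all genes. KIF1C, a motor of secretory vesicles and integrin carriers, rose with MET∆14, where it had 125 and 130.3 CPM at 0 h, to 153 and 163 CPM at 3 h, 177 and 172 CPM at 6 h and 189.7 and 194 CPM at 12 h (0.59, SE 0.0725, adjusted p = 1.96e-05). With wt MET it had 125 and 136 CPM at 0 h and 119 and 119 CPM at 12 h (-0.13, SE 0.0728, adjusted p = 0.171), and the responses differed by 0.58 on average (adjusted p = 0.000272). KIF3C, a neuronal kinesin-2 subunit, fell at 6 h in both lines, from 12.6 and 12.8 CPM to 5.69 and 4.93 CPM with MET∆14 (-1.27, SE 0.146, adjusted p = 6.20e-06) and by 0.64 with wt MET (SE 0.134). Its call over all times with wt MET was lost without replicate 1 at 0 h.

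The remaining transport kinesins had few calls, small changes or few counts. KIF3A, KIF13A, KIF13B and KIFC2 were not called over the 3 times in either line. At single times with wt MET, KIFC2 was lower at 12 h (-0.72, SE 0.247, adjusted p = 0.0355) and KIF3A at 6 h (-0.41, SE 0.149, adjusted p = 0.0441), calls lost in 3 and 13 of 16 fits that left out a library. KIF13A and KIF13B were called at no time against 0 h, and KIF1B, a mitochondrial motor, and KIF3B, of the intraflagellar transport motor, changed by at most 0.43 on the log2 scale at any time. With MET∆14, KIF1B was lower at 6 h (-0.33, adjusted p = 0.0211) and higher at 12 h (0.34, adjusted p = 0.0195). It was counted as lower by a mean of -0.01, which gives no clear direction. The neuronal heavy chains KIF5A and KIF5C are paralogues of KIF5B, and their low counts are uncertain because the counting could split shared reads. KIF5A was at 1.30 and 1.41 CPM at 0 h with wt MET and at 2.54 and 2.59 CPM at 3 h, 2.36 and 3.23 CPM at 6 h and 2.81 and 2.09 CPM at 12 h. Its call there was at the threshold (0.93, adjusted p = 0.0497) and was lost in 13 of 16 fits that left out a library. KIF5C had 3 to 34 counts per library, and its response differed between the lines by -1.68 (adjusted p = 0.0466), a call lost in 11 of 16 such fits. KIF1A had 0 to 4 counts in MET∆14 libraries, so no change is given there.

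Among the kinesins of the cilium, KIF24, a depolymerase that holds back ciliogenesis at the centriole, was called in both lines. Its MET∆14 libraries had 12.4 and 13.4 CPM at 0 h, and it fell to 8.22 and 6.96 CPM at 3 h and 6.74 and 7.07 CPM at 6 h (-0.90, SE 0.14, adjusted p = 0.000106), and read 10.9 and 10.1 CPM at 12 h. With wt MET it read 4.27 and 4.24 CPM at 0 h and 2.95 and 2.69 CPM at 12 h (-0.58, SE 0.176, adjusted p = 0.018), a call lost without any of these 4 libraries. As for most mitotic kinesins, the lower levels came early with MET∆14 and late with wt MET, and its response differed between the lines (adjusted p = 0.000168). Its promoter and that of KIF5B were those outside the mitotic class that held a CHR, among the 34 members matched. KIF9 fell with wt MET at 12 h (-0.69, SE 0.183, adjusted p = 0.00888), a call lost without replicate 2 at 12 h, and KIF7 and KIF27 were not called over the 3 times in either line, while genes of the other strand overlap 17.8%, 10.8% and 10.7% of the exon bases of KIF9, KIF7 and KIF27.

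KIF2A, which works at spindle poles and in neurons and was therefore kept out of the mitotic class, did not fall like its relative KIF2C. It had 52.5 and 53.4 CPM at 0 h with MET∆14 and rose to 69.8 and 66.9 CPM at 3 h, 66.4 and 65.6 CPM at 6 h and 72.2 and 57.9 CPM at 12 h (0.37 at 3 h, SE 0.0926, adjusted p = 0.00691). Libraries with HGF lay above those at 0 h, while DIMT1 on the other strand overlaps 18.7% of its exon bases. With KIF2A counted as mitotic, all 13 tested were called over the 3 times with MET∆14, 12 lower and 1 higher on average. KIF2C, the depolymerase MCAK that corrects kinetochore attachments, went from 81.5 and 78.4 CPM to 37.0 and 44.8 CPM at 3 h. KIF26B, an atypical kinesin of adhesion and polarity, was at 3.98 and 4.52 CPM at 0 h with MET∆14, 3.58 and 3.91 CPM at 3 h, 12.5 and 17.1 CPM at 6 h and 9.14 and 6.21 CPM at 12 h. It rose at 6 h (1.80, SE 0.207, adjusted p = 6.10e-06), and no wt MET library held more than 9 counts of it. At 0 h KIF26B was higher with MET∆14 by 4.52 in log2 units (SE 0.403), over wt MET libraries with 2 and 3 counts. The 6 members that were not tested were KIF2B and KIF19, with 0 counts, KIF4B, a retrocopy of KIF4A with at most 5 counts that cannot be told from misassigned reads, KIF6, KIF12 and KIF25.

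Other genes of the spindle moved as the mitotic kinesins did. Of 20 partners of mitotic kinesins, 18 were called lower over the 3 times with wt MET and 19 with MET∆14 (21.1% and 28.5% of all genes), none higher. AURKB, the kinase of the complex that KIF20A carries, had 9.15 ± 0.761 CPM at 0 h with wt MET and fell to 0.668 ± 0.47 CPM at 12 h (SD, n = 2), and PLK1, which docks on KIF20A, fell from 24.2 ± 0.598 to 3.79 ± 0.227 CPM. With MET∆14, HMMR went from 98.1 ± 7.01 to 34.4 ± 1.71 CPM at 12 h, and CIT, a cytokinesis kinase that binds KIF14, from 64.2 ± 6.60 to 19.5 ± 0.114 CPM at 6 h. Among 21 regulators of G2 and mitosis genes, 10 were lower and 5 higher with wt MET (21.1% and 19.2% of all genes), and 11 lower and 7 higher with MET∆14 (28.5% and 25.6%). E2F2 fell by 1.34 on average with wt MET and by 1.37 with MET∆14, and E2F1 by 1.32 with wt MET, in log2 units. Chosen after their values were seen, FOXM1, an activator of such genes, fell by 1.63 at 12 h with wt MET (adjusted p = 7.01e-07) and by 0.68 with MET∆14 (adjusted p = 8.05e-05), and CDKN1A, which encodes the CDK inhibitor p21, rose with MET∆14 at 3 h (adjusted p = 5.77e-05), from 193 ± 4.07 to 400.4 ± 30.5 CPM and was at 209 ± 57.3 CPM at 12 h, and with wt MET it was at 1376 ± 143 CPM at 0 h and 1363 ± 60.8 CPM at 12 h.

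Cargo adaptors and the opposing motor were mixed, as the transport kinesins were. Of 19 tested kinesin adaptors, 4 were higher and 2 lower with wt MET (19.2% and 21.1% of all genes), and 5 were higher and 5 lower with MET∆14 (25.6% and 28.5%). SPAG9, the JIP4 adaptor of kinesin-1, had 483 ± 32.2 CPM at 0 h with wt MET and rose at 6 h to 1151 ± 6.13 CPM, and KLC2, a kinesin light chain, rose with MET∆14 from 32.0 ± 2.09 to 67.4 ± 1.58 CPM at 6 h. HAP1 fell by 0.86 with MET∆14, as a log2 mean over the times. KLC2 was at 73.3 ± 8.53 CPM at 0 h and 66.8 ± 1.59 CPM at 6 h with wt MET, and its response differed between the lines (adjusted p = 4.18e-05). Of 19 tested subunits of cytoplasmic dynein and dynactin, the minus-end motor of interphase cells, 7 were called in each line (40.3% of all genes with wt MET and 54.1% with MET∆14). The largest mean log2 changes among them were those of ACTR1B (-0.38, adjusted p = 0.0173) and DCTN5 (0.38) with wt MET and of DYNC1LI1 (0.39, adjusted p = 0.000609) and DYNLT3 (0.34) with MET∆14.

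The study's own formula adds a term for the line to terms for time, which gives 1 common time course. With these terms edgeR called 14 of 36 kinesins for time (30.6% of all genes), 7 mitotic, all lower, 6 transport and 1 other. KIF18B, called in both lines over the 3 times, was not called in it.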

How the data were processed

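PolyA RNA of 2 lung cancer lines was sequenced at 4 times of HGF with 2 libraries per condition, 16 in all. The authors deposited whole-number counts per gene, made from reads mapped with STAR to hg38 per the study's methods. The submitters' processing notes name STAR 2.5.0 and RSEM 1.3.2 with no roles, so the counts may be rounded estimates, and the use of strand is not given in the sources used here. The table had 42351 genes and every column was matched to a sample by its name. The columns of 1 line begin with other letters than the sample titles, and the study's text gives another line for wt MET than the labels, which were followed here.

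Genes were filtered with filterByExpr (minimum count 10, minimum total 15), which left 15067, scaled by TMM and fitted with edgeR 4.0.16 in R 4.3.3, with 8 group means over 16 libraries and robust quasi-likelihood F tests. The spread of all groups was estimated together since each has 2 libraries. P-values were adjusted over all genes by the Benjamini-Hochberg method with a threshold of 0.05. "Any time" is the joint test of 3, 6 and 12 h against 0 h, its direction that of the mean over the times. "Response differs" is the joint test of the line by time terms. CPM used TMM-scaled totals, and levels were compared between genes per kilobase of merged exons from GENCODE. Total counts per library limit the precision of low genes. The scripts were tested on simulated data. The study describes its experiments as done in biological duplicates, while the labels do not say that libraries came from separate cultures. P-values measure the spread between these libraries, as 1 estimate per gene shared by all groups. They may therefore understate the spread in tests that use MET∆14 at 12 h. The chi-square per degree of freedom there was 34.5, against 2.795 to 9.953 in the other conditions. Equal replicate numbers did not pair the libraries (correlation of deviations -0.159 to 0.111 over 28 pairs of groups, 1 over 0.1).

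The text names, in each line, the 3 mitotic and the 3 other kinesins with the largest called mean change, the 3 whose responses differed most, and other members to account for their class, and for each gene list the 2 largest changes per line. Some results that this rule selects are not reported here. The members and lists were chosen with earlier results of these data known. Alternatives were DESeq2 1.42.0, its size factors in edgeR, other filters on low counts, each line fitted alone, a replicate block, KIF2A counted as mitotic and each library left out. Promoters came from the RefSeq table of GRCh38.p14, and 8 members without an entry there were not searched. Figures were drawn with matplotlib 3.10.9 in Python 3.11.15.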

Additional observations from a re-analysis of the deposited data

Results flagged for a closer look

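The response to HGF differed between the lines for 11 of 12 mitotic and 7 of 17 transport kinesins, beside 37.6% of all genes tested. The test was the joint test over the 3 times (edgeR's quasi-likelihood test, adjusted by Benjamini-Hochberg). The transport share of 41.2% was near that of all genes. Each value below is the mean log2 change over 3, 6 and 12 h with MET∆14 minus that with wt MET. It was 0.41 for KIF20A (adjusted p = 0.000185), 1.24 for KIF18B (adjusted p = 2.21e-06) and 0.61 for KIFC1 (adjusted p = 4.13e-06), whose levels with wt MET were lower at each later time. It was -1.22 for KIF20B (adjusted p = 4.62e-05) and 1.21 for KIFC3 (adjusted p = 7.44e-07), which moved in opposite directions in the lines. For KIF21B it was 1.38 (adjusted p = 0.000321), and 0.88 without wt MET 0 h replicate 1. For KIF15 it was -0.19 (adjusted p = 0.00316), a small mean over a difference of -0.87 at 3 h (adjusted p = 0.036) and 0.71 at 12 h. The difference at 12 h was not called (adjusted p = 0.0809), and the call at 3 h was lost in 6 fits that left out a library. For KIF5C, with 3 to 34 counts per library, it was -1.68 (adjusted p = 0.0466).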

How the results depend on the processing

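The counts of mitotic and transport kinesins called in each line, between the lines at 0 h and for a different response stayed within 1.5 times their value under every alternative, and no mean change reversed among the kinesins named for the size of their change. The mean changes of KIF24 with wt MET (-0.01) and of KIF1B with MET∆14 (-0.01), both near 0, turned to 0.02 in the fit with 1 library left out that gave the largest p. With a replicate block 11 mitotic and 9 transport kinesins were called with wt MET and 12 and 10 with MET∆14. The block ended the calls of KIF5A with wt MET (adjusted p = 0.0726) and of the KIF5C difference (adjusted p = 0.0633), and no other call of a kinesin named by its mean change. DESeq2 ended the same calls (adjusted p = 0.279 and 0.104), and without a filter on low counts KIF5A was at 0.0884. Leaving out each library gave 11 to 12 mitotic kinesins with wt MET, 12 with MET∆14 and 10 to 12 with a different response, and 8 to 12 transport kinesins in each line and 5 to 10 with a different response. The call of KIF17 with wt MET was lost without 0 h replicate 2 (adjusted p = 0.109). With at least 10 counts in every library the transport median at 6 h with wt MET was -0.02, against 0.18, and that at 12 h with MET∆14 was 0.23, against 0.08. The latter was 0.28 with each line fitted alone and 0.43 without MET∆14 12 h replicate 2, and the cause was not tested. For a time effect shared by the lines DESeq2 called 17 kinesins, against 14. Low counts limit KIF1A, KIF5A, KIF5C and KIF26B.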
